A study of Mus musculus with 24 samples.

Results

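The genes compared here are those of nascent RNA in leptotene spermatocytes against spermatogonia of the mouse testis, as relative composition and not as amount per cell. The 7 libraries used, of 12 nascent libraries and 24 libraries in the series, were chosen by their labels: 3 of spermatogonia and 4 of leptotene spermatocytes. All came from wild-type NMRI mice whose spermatogenesis had been synchronised, first by blocking the synthesis of retinoic acid with the compound WIN18,446 and then by giving retinoic acid. Each mouse received 2 mg of 5-ethynyl uridine (EU), a uridine analogue that is built into newly made RNA and can be pulled down, at 24 days after birth. Cells were taken 3 hours later and sorted by ploidy, a gate that reads DNA content and no stage marker. Spermatogonia libraries 1 and 2 came from animal IND7 and library 3 from IND5. Leptotene libraries 1 and 2 came from IND5, library 3 from IND8 and library 4 from IND7. The comparison therefore rests on 2 animals against 3, and animals IND5 and IND7 gave both stages. The 92 spike-in rows of the 52323 in the deposited FPKM table were dropped and each library was set to the same sum, 297003 FPKM. Of the 52231 remaining rows, 13916 had at least 1 rescaled FPKM in at least 2 of the 7 libraries and were tested. Every level below is in this rescaled FPKM, which is per kilobase of transcript.

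Leptotene is the first stage of meiotic prophase, when chromosomes condense along a cohesin-based axis and the SPO11 complex cuts the DNA. Strand-exchange proteins such as DMC1 then search for the homologous chromosome. Spermatogonia are the mitotic cells before meiosis, and range from stem cells, which depend on GDNF signalling through RET and GFRA1, to differentiating cells, which express KIT. Retinoic acid induces STRA8, which together with MEIOSIN switches on meiotic genes. Differences are on the scale of log2(FPKM + 1), leptotene minus spermatogonia, and understate the change of low genes. They are given with the standard error (SE) of limma, which was fitted across all genes on the mean of each animal and stage. Its p-values were adjusted by the Benjamini-Hochberg method over all genes tested, and a gene is called at an adjusted p under 0.05.

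The 4 libraries labelled leptotene were not alike. Across the 13916 genes, which are not independent replicates, leptotene libraries 1 and 4 resembled each other with a Spearman correlation of 0.909. Both resembled the single preleptotene library as closely, at 0.909 and 0.908. Leptotene library 2 was nearer to the 4 pachytene libraries (0.794 to 0.888) than to the other leptotene libraries (0.671 to 0.713). Leptotene library 3 was nearest to spermatogonia library 3 (0.830). Its correlations with the other spermatogonia libraries (0.700 and 0.706) lay in the range of those with its own stage (0.671 to 0.731), and that with preleptotene was 0.750.

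Marker genes separated the same libraries. The summed level of 31 genes of pachytene cells, of which 15 passed the filter on level, was 1307 in leptotene library 2. It was 176, 73.8 and 127 in leptotene libraries 1, 3 and 4, and lay between 52.7 and 71.2 in spermatogonia and between 1318 and 1983 in pachytene. Piwil1, which makes the PIWI protein of pachytene piRNAs, stood at 54.2 in leptotene library 2 and at 0.403, 0.306 and 0.263 in leptotene libraries 1, 3 and 4. In library 3, Kit was at 12.9, within its range of 9.26 to 14.3 in spermatogonia, while leptotene libraries 1, 2 and 4 had 4.92, 2.34 and 3.31. The gene for cyclin D1, Ccnd1, was at 25.0 in library 3, against 1.98, 1.68 and 1.72 in leptotene libraries 1, 2 and 4 and 10.4, 11.9 and 25.7 in spermatogonia. Results are therefore given with all 7 libraries, without leptotene library 2, and with leptotene libraries 1 and 4 only. The last set is the 5 libraries of these stages that the authors kept in a second, 5S-corrected table, whose reason for leaving out leptotene libraries 2 and 3 is not given in the sources used here. Animals IND5 and IND7 each gave both stages of this set, so it compares 2 animals against the same 2. Its fit, like that with all 7 libraries, did not pair them, and its p-values rest on these 2 animals alone.

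**Figure D1:**
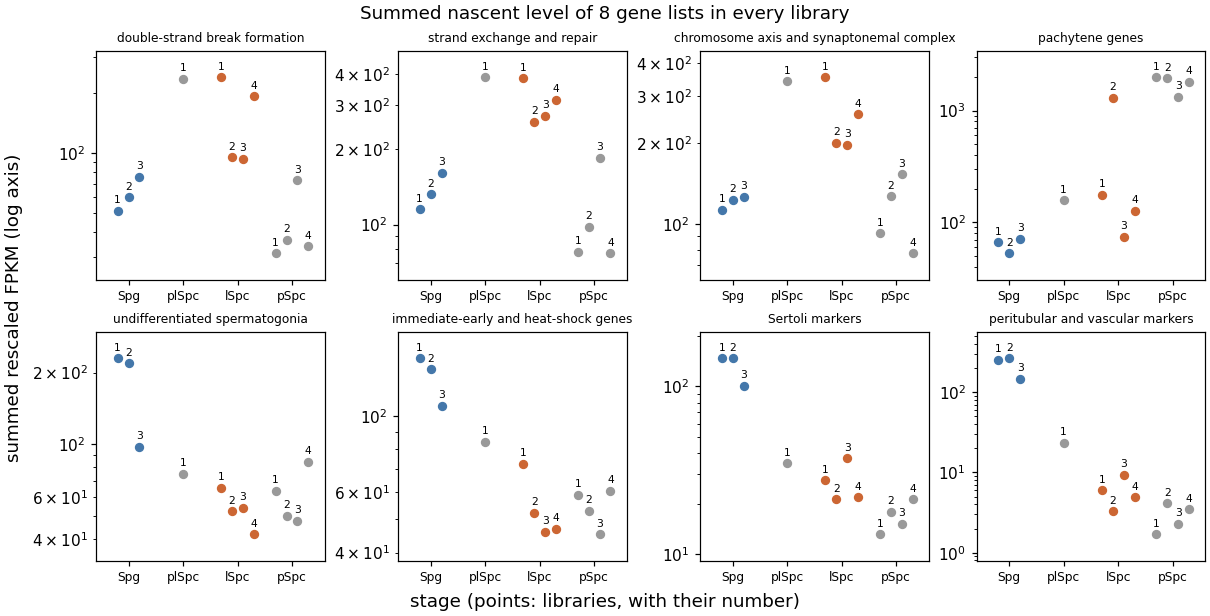
Summed rescaled FPKM (log axis) of 8 gene lists in each of the 12 nascent libraries. Points are libraries with their number, in spermatogonia (Spg), preleptotene (plSpc), leptotene (lSpc) and pachytene (pSpc). Pachytene genes sum to 1307 in leptotene library 2, as in pachytene, and markers of peritubular and vascular cells sum to 148 or more in spermatogonia only.

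The spermatogonia libraries held RNA of somatic testis cells, and the leptotene libraries held little of it. The summed level of 13 peritubular and vascular markers was 252, 266 and 148 in spermatogonia libraries 1 to 3 and 5.98, 3.26, 9.44 and 4.89 in leptotene libraries 1 to 4. That of 20 Sertoli markers was 147, 147 and 101 against 27.5, 21.2, 37.2 and 21.8. For 11 Leydig markers the sums were 47.0, 82.2 and 37.8 against 4.28, 3.51, 2.56 and 2.79. For blood and macrophage markers, of which 11 of 12 are in the table, they were 22.6, 25.9 and 13.7 against 0.629, 1.26, 1.30 and 1.42. No leptotene library reached the lowest spermatogonia library on any of these 4 lists. Acta2, the smooth muscle actin of peritubular cells, was listed at 0 in leptotene libraries 1 and 4, and Insl3, the Leydig hormone gene, was listed at 0 in all 4. In bulk libraries fewer cells of a type and less RNA per cell cannot be told apart.

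Many more genes were lower than higher in leptotene. With all 7 libraries limma called 38 of 13916 genes higher (0.273%) and 970 lower (6.97%). Without leptotene library 2 it called 71 of 13552 higher (0.524%) and 1149 lower (8.48%). With leptotene libraries 1 and 4 only it called 2073 of 13297 higher (15.6%) and 3606 lower (27.1%). Leptotene library 3 set most of this difference: without it alone, 1253 genes were called higher (9.14%) and 2856 lower (20.8%). Without leptotene library 1 the counts were 10 and 743, and without leptotene library 4 they were 9 and 315. Leaving out spermatogonia library 3 leaves only animal IND7 for spermatogonia, so that fit holds no spread between spermatogonia animals. With animal as a block, a fit that has no second stage for IND8 and so takes nothing from leptotene library 3, 972 were higher (6.98%) and 2254 lower (16.2%).

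The direction of the typical gene depended on the scaling. The median difference of all genes was -0.17 with all 7 libraries, and 0.16 when the libraries were scaled to an equal median, which left 27 genes higher (0.194%) and 424 lower (3.05%). With leptotene libraries 1 and 4 only, 36.5% of the calls were higher, and scaling these 5 libraries to an equal median gave 3687 higher and 2706 lower, so that 57.7% were higher. A small difference is therefore read against the median of all genes, which was -0.17 without leptotene library 2 and -0.22 with leptotene libraries 1 and 4 only. Of the 970 genes called lower, 928 are protein-coding, and of the 38 called higher, 16 are.

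**Figure D2:**
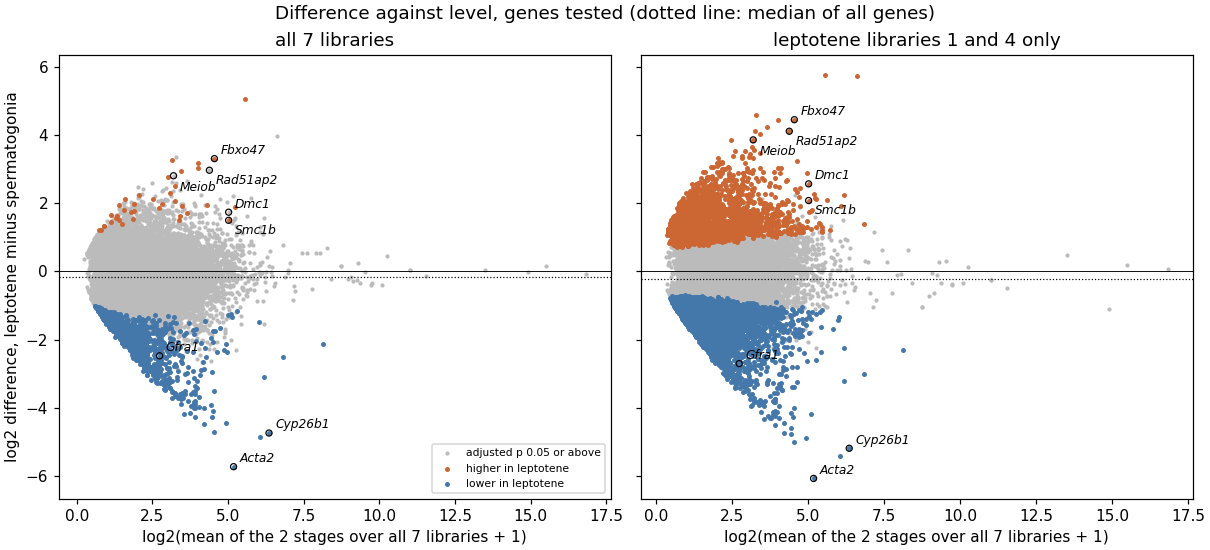
Log2 difference, leptotene minus spermatogonia, against the log2 of the mean level, for the genes tested with all 7 libraries (left) and with leptotene libraries 1 and 4 only (right). Orange and blue points are genes called higher and lower, and the dotted line is the median of all genes. On the left 38 genes are called higher and 970 lower, on the right 2073 and 3606.

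Fbxo47 rose. It encodes an F-box protein of meiotic cells, the substrate-binding part of an SCF ubiquitin ligase, and lies on the minus strand of chromosome 11 (97853826 to 97884154, GRCm38). Its nascent level was 2.55, 1.69 and 2.41 in the 3 spermatogonia libraries and 80.3, 34.6, 8.98 and 61.2 in leptotene libraries 1 to 4. Every leptotene library was above every spermatogonia library, as for 7.94% of all genes tested, and library 3 was the lowest of the 4. The difference was 3.31 (SE 0.74, limma adjusted p 0.0387) with all 7 libraries, 3.51 (SE 0.80, adjusted p 0.0313) without leptotene library 2 and 4.45 (SE 0.38, adjusted p 0.000268) with leptotene libraries 1 and 4 only. The call was lost without leptotene library 4 (adjusted p 0.101). It was also lost without spermatogonia library 3, a fit that leaves only animal IND7 for spermatogonia. Preleptotene had 70.7 and pachytene 0.449 to 17.1.

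Meiob and Rad51ap2 had the same order of leptotene libraries as Fbxo47, with library 1 highest and library 3 lowest. MEIOB binds single-stranded DNA together with SPATA22, and RAD51AP2 is a strand-exchange accessory protein of meiosis. The level of Meiob (chromosome 17, 24804289 to 24839788, plus strand) was 1.33, 0.291 and 0.900 in spermatogonia and 30.1, 13.6, 3.31 and 21.3 in leptotene. Its difference of 2.81 (SE 0.69) just missed the threshold with all 7 libraries (limma adjusted p 0.0519) and passed it without leptotene library 2 (2.99, adjusted p 0.0434). The level of Rad51ap2 (chromosome 12, 11456079 to 11462928, plus strand) was 1.65, 1.96 and 3.46 in spermatogonia and 66.7, 33.4, 6.93 and 54.3 in leptotene. Its difference of 2.97 (SE 0.80) did not pass with all 7 libraries (adjusted p 0.0663) or without leptotene library 2 (3.13, adjusted p 0.0536). With leptotene libraries 1 and 4 only, limma gave 3.86 for Meiob (SE 0.35, adjusted p 0.000268) and 4.11 for Rad51ap2 (SE 0.40, adjusted p 0.00029). The stages did not overlap for Meiob or Rad51ap2, a pattern that 7.94% of all genes tested showed in this direction (13% without leptotene library 2). With animal as a block the adjusted p was 0.00393 for Fbxo47, Meiob and Rad51ap2 alike, and the differences were 4.15, 3.59 and 3.87.

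The other rises named by a fixed rule were few. Smc1b, the meiosis-specific SMC1 subunit of cohesin, was at 12.3, 15.5 and 16.4 in spermatogonia and at 75.1, 28.8, 31.5 and 59.6 in leptotene. It rose by 1.5 (SE 0.35, limma adjusted p 0.0464) with all 7 libraries and missed the threshold without leptotene library 2 (1.72, adjusted p 0.0501). Cdkn3, which encodes a phosphatase of cyclin-dependent kinases, rose from 0.655, 0.803 and 1.20 to 13.0, 5.71, 3.73 and 12.7 (2.14, SE 0.47, adjusted p 0.0377). Mief1, a regulator of mitochondrial fission, rose from 5.22, 5.56 and 7.64 to 57.1, 11.2, 21.4 and 37.4 (1.93, SE 0.35, adjusted p 0.0202), and preleptotene had only 2.66. Arl4a, a small GTPase, rose by 1.97 (adjusted p 0.0256), but was at 0.980 in leptotene library 1 and 10.1 in library 2, and its adjusted p without library 2 was 0.107. Smc1b, Cdkn3, Arl4a and Mief1 each lost the call without leptotene library 4. They also lost it without spermatogonia library 3, a fit that leaves only animal IND7 for spermatogonia.

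Some rises are uncertain as measurements. H1fx, a linker histone gene, had the highest difference of the 38 (5.05, SE 0.76, limma adjusted p 0.0109), but was at 27.0 in spermatogonia library 1 and listed at 0 in libraries 2 and 3, against 164, 94.3, 36.3 and 93.3 in leptotene. Without spermatogonia library 2 the adjusted p of H1fx was 0.122. Its call was also lost without spermatogonia library 3, which leaves only animal IND7 for spermatogonia. Hist1h4f has near-identical copies in the histone clusters, so reads could be split among them. It rose from 9.09, 18.0 and 16.4 to 61.9, 45.9, 45.1 and 74.9 (1.89, SE 0.34, adjusted p 0.0185). Chtf8 shares its locus with another gene and had 0.653 in leptotene library 1 but 19.2, 15.5 and 20.7 in the others (3.27, adjusted p 0.0159), and its call was lost without leptotene library 2 (2.67, adjusted p 0.119). The rule also named, without leptotene library 2, Tbc1d10c (2.64, adjusted p 0.0457), Pth2 (2.18, adjusted p 0.0471), Hmox2 (2.24, adjusted p 0.00884) and the testis-specific linker histone gene Hist1h1t (1.73, adjusted p 0.0351).

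**Figure D3:**
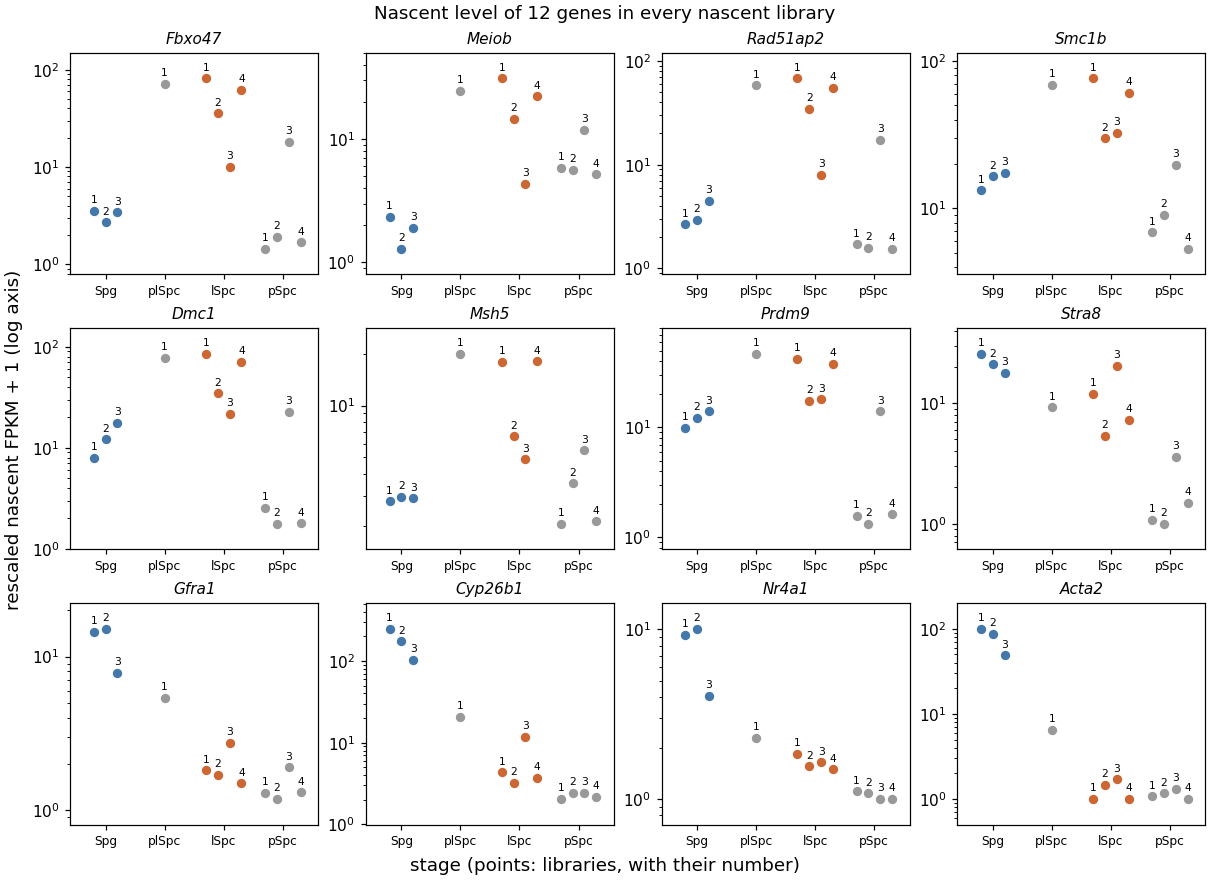
Rescaled nascent FPKM + 1 (log axis) of 12 genes in each of the 12 nascent libraries. Points are libraries with their number, by stage (Spg, spermatogonia; plSpc, preleptotene; lSpc, leptotene; pSpc, pachytene). Fbxo47, Meiob and Rad51ap2 are higher in all 4 leptotene libraries than in spermatogonia and lowest in leptotene library 3, and Gfra1, Cyp26b1, Nr4a1 and Acta2 are lower in all 4.

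Most genes of DNA break formation were called higher with leptotene libraries 1 and 4 only, and none with all 7 libraries. All 10 members passed the filter on level. With all 7 libraries limma called none of the 10, and 3 were higher at an unadjusted p under 0.05; their median difference was 0.87 against -0.17 for all genes. Without leptotene library 2 none was called (4 higher at an unadjusted p under 0.05, median 1.01). With leptotene libraries 1 and 4 only, 7 of 10 were called higher and none lower, where 15.6% of all genes were called higher. Spo11, whose product cuts the DNA, went from 0.817, 0.382 and 0.365 in spermatogonia to 6.47, 4.93, 1.25 and 4.68 in leptotene. Ccdc36 (Iho1), a partner of the break machinery on the axis, went from 13.1, 14.1 and 19.6 to 87.8, 29.3, 29.2 and 77.3. Prdm9, the methyltransferase that places the breaks, went from 8.95, 11.2 and 13.0 to 41.3, 16.4, 17.1 and 37.0. Library 1 and library 4 were the 2 highest for Ccdc36 and Prdm9. For all 3 genes every leptotene library lay above spermatogonia, as for 7.94% of all genes tested. Their differences with all 7 libraries were 1.58 (SE 0.49, adjusted p 0.0988), 1.52 (SE 0.44, adjusted p 0.0831) and 1.09 (SE 0.39, adjusted p 0.131) for Spo11, Ccdc36 and Prdm9.

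Strand exchange and repair genes were split. Of 25 members 24 passed the filter, and limma called none of them with all 7 libraries (7 higher and 1 lower at an unadjusted p under 0.05, median 0.70). Only Meiob was called without leptotene library 2 (median 0.68), where 0.524% of all genes were called higher. With leptotene libraries 1 and 4 only, 10 were called higher and 2 lower (median 0.71), where 15.6% and 27.1% of all genes were. Dmc1, the meiotic recombinase, went from 6.97, 11.2 and 16.6 to 84.5, 33.7, 20.7 and 70.2 (1.74, SE 0.54, adjusted p 0.0987; 2.57, SE 0.44, adjusted p 0.00207 with libraries 1 and 4 only). Swsap1, a strand-exchange cofactor, went from 2.55, 1.62 and 3.46 to 12.1, 3.91, 2.49 and 11.4. Dmc1 and Swsap1 were called higher with libraries 1 and 4 only (adjusted p 0.00207 and 0.00378).

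Crossover factors gave no call with all 7 libraries. Of 12 members 11 passed the filter, and none was called with all 7 libraries (3 higher and 1 lower at an unadjusted p under 0.05, median 0.67), and none without leptotene library 2 (4 higher and 1 lower). With libraries 1 and 4 only, 5 were called higher and 1 lower, where 15.6% and 27.1% of all genes were. Msh5, one subunit of the MutS dimer that stabilises crossover intermediates, went from 1.78, 1.94 and 1.90 to 16.9, 5.64, 3.88 and 17.1 (1.78, SE 0.53, adjusted p 0.0877; 2.64, SE 0.33, adjusted p 0.00059 with libraries 1 and 4 only). Hfm1, a crossover helicase, went from 1.03, 1.58 and 2.08 to 10, 6.40, 2.74 and 7.26. Rnf212, a SUMO ligase of crossover sites, went from 0.631, 0.665 and 1.14 to 5.13, 1.79, 1.27 and 4.40. All 3 had every leptotene library above spermatogonia, a pattern that 7.94% of all genes tested showed. Mlh3, an endonuclease that resolves crossovers later, ran the other way, from 6.37, 5.37 and 7.26 to 2.27, 2.15, 5.27 and 1.39 (-1.05, SE 0.45, adjusted p 0.188; -1.43, SE 0.33, adjusted p 0.00752 with libraries 1 and 4 only), and pachytene had 9.20 to 31.3.

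Of 18 genes of the chromosome axis and synaptonemal complex, 16 were tested. Smc1b alone was called with all 7 libraries, where 0.273% of all genes were called higher. In that fit 9 were higher at an unadjusted p under 0.05 (median 0.83). None was called without leptotene library 2 (7 higher at an unadjusted p under 0.05, median 0.91). With libraries 1 and 4 only, 8 were called higher and 1 lower (median 1.07), where 15.6% and 27.1% of all genes were. Sycp2, an axis core protein, went from 5.66, 5.49 and 11 to 38.6, 24.5, 13.4 and 29.3. Rad21l, a meiotic kleisin subunit of cohesin, went from 8.35, 5.43 and 2.78 to 21.1, 4.56, 11.9 and 15.2, with leptotene library 2 inside the range of spermatogonia. Rec8, the other meiotic kleisin, was low, at 1.43, 1.11 and 4.53 in spermatogonia, listed at 0 in leptotene libraries 1, 2 and 4, and at 3 in library 3. Sycp3, the marker protein of the axis, moved little in nascent RNA: it was at 4.45, 12.4 and 7.15 in spermatogonia and 10.1, 19.3, 13.2 and 11.3 in leptotene (0.72, SE 0.29, adjusted p 0.175). Its total RNA difference was 1.26 (adjusted p 0.0974).

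Telomere attachment genes, which tether chromosome ends to the nuclear envelope, gave no call among 11 with all 7 libraries or without leptotene library 2 (3 higher at an unadjusted p under 0.05 in each). With libraries 1 and 4 only, 4 were called higher and 1 lower, where 15.6% and 27.1% of all genes were. Ccdc155 (Kash5), the outer membrane adaptor to dynein, went from 1.92, 1.54 and 2.07 to 16.1, 8.68, 3.97 and 12.1. Spdya, an activator of CDK2 at telomeres, went from 4.05, 4.17 and 5.75 to 27.4, 30.1, 7.08 and 26.9, and stayed at 20.0 to 33.4 in pachytene. Terb1 went from 1.25, 1.94 and 1.62 to 6.95, 4.99, 2.33 and 7.75. Sun2, an inner membrane partner, was the 1 called lower: it was at 3.09, 8.34 and 8.03 in spermatogonia and 1.78, 2.60, 6.09 and 1.64 in leptotene.

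The remaining meiotic lists gave few calls. In the SCF ubiquitin ligase list Fbxo47 was the 1 of 11 called with all 7 libraries and without leptotene library 2. In those fits 0.273% and 0.524% of all genes were called higher. With libraries 1 and 4 only, 3 of the 11 were called higher and 2 lower, where 15.6% and 27.1% of all genes were. Fbxo5 (EMI1), an inhibitor of the anaphase-promoting complex, went from 2.17, 2.93 and 2.93 to 26.7, 6.33, 5.88 and 21.6 and was called with libraries 1 and 4 only (2.75, adjusted p 0.000665). Of the core subunits, Skp1a was at 23.6, 4.38 and 3.24 in spermatogonia and 27.2, 26.7, 22.3 and 16.5 in leptotene, and did not pass with all 7 libraries (1.69, SE 0.47, adjusted p 0.0725) but did with libraries 1 and 4 only (adjusted p 0.0247). With all 7 libraries Cul1 differed by 0.06 (SE 0.40, adjusted p 0.94) and Rbx1 by -0.87 (SE 0.33, adjusted p 0.15). With libraries 1 and 4 only Rbx1 was called lower and Cul1 was not called. Among 17 checkpoint and silencing genes none was called with all 7 libraries or without library 2 (1 higher in each at an unadjusted p under 0.05, and 2 and 1 lower). With libraries 1 and 4 only, 3 of the 17 were called higher, a share near the 15.6% of all genes. Mdc1, the scaffold that spreads the ATR signal over chromatin, went from 30.4, 30.2 and 34.7 to 184, 122, 45.8 and 135. Mybl1, the transcription factor of pachytene genes, went from 4.03, 3.18 and 4.54 to 48.5, 41.4, 7.79 and 33.4 (2.25, SE 0.66, adjusted p 0.0846; 3.03, SE 0.39, adjusted p 0.000653 with libraries 1 and 4 only).

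Few genes that start meiosis were called. Of 11 members none was called with all 7 libraries or without leptotene library 2 (1 higher at an unadjusted p under 0.05 in each, median 0.02 in both). With libraries 1 and 4 only 1 was called higher and 2 lower, where 15.6% and 27.1% of all genes were. Stra8 was at 24.7, 19.9 and 16.8 in spermatogonia and 10.9, 4.35, 19.5 and 6.27 in leptotene, so that leptotene library 3 alone fell within the range of spermatogonia (-0.94, SE 0.49, adjusted p 0.254; -1.13, SE 0.40, adjusted p 0.0463 with libraries 1 and 4 only). Gm4969 (Meiosin), the partner of STRA8, was at 9.34, 11.8 and 13.0 against 33.9, 9.85, 13.0 and 16.6 (0.41, SE 0.31, adjusted p 0.416). Ythdc2, an RNA-binding partner of MEIOC, went from 6.96, 4.14 and 11.6 to 25.3, 14.7, 13.4 and 18.7 and was called with libraries 1 and 4 only (1.34, adjusted p 0.0318). Dazl, a germ cell RNA-binding protein gene, was at 13.9, 171 and 211 against 267, 125, 11.6 and 199, with 1 low library in each stage (-0.42, SE 1.19).

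The motif bound by STRA8 and MEIOSIN, CNCCTCAG on either strand, was looked up in the RefSeq promoter windows (GRCm38.p6, 250 bases before to 50 after a start). It was in 15% of the 1155 windows of genes called higher with leptotene libraries 1 and 4 only. It was in 6.87% of the 3259 windows of genes called lower, in 9.48% of the windows of all genes tested and in 7.94% of all 32851 windows. 4 other motifs were searched in the same windows, on both strands. The E2F site TTTCCCGC was in 3.55% of the windows of genes called higher, 1.60% of those called lower and 2.19% of those of all genes tested. The values were 3.12%, 1.23% and 2.22% for the NRF1 site, 3.72%, 1.93% and 3.11% for the CRE TGACGTCA, and 8.31%, 9.60% and 10.3% for the E-box CACGTG. The mean GC content was 60.3% in the windows of the genes called higher, 61.5% in those called lower and 61.3% over all genes tested. With all 7 libraries the called genes had only 19 windows on the higher side, 1 of them with the motif. Of the 41 members of the 8 meiotic lists called higher with libraries 1 and 4 only, 30 had a window and 7 of these held the motif, against 13 of 53 members not called and 0 of 7 called lower.

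The 250 bases before the start are shown for 4 of these 7 genes, those with the motif before the start, and for Rad51ap2, whose window lacks it. Sequences read 5′ to 3′ on the gene's strand, with the motif in capitals. They lie at chr17:15564355-15564604 (Prdm9, minus strand), chr17:35046623-35046872 (Msh5, minus strand), chr5:106925891-106926140 (Hfm1, minus strand), chr8:84872008-84872257 (Syce2, plus strand) and chr12:11455805-11456054 (Rad51ap2, plus strand). The motif lies 41 to 34 bases before the start of Prdm9 on the gene's strand, and on the opposite strand 82 to 75 bases before Msh5, 66 to 59 before Hfm1 and 39 to 32 before Syce2. Prdm9 and Syce2 have 2 windows each, of which 1 holds the motif before the start, and only that window is shown. A match is a description and no measure of binding.
Prdm9: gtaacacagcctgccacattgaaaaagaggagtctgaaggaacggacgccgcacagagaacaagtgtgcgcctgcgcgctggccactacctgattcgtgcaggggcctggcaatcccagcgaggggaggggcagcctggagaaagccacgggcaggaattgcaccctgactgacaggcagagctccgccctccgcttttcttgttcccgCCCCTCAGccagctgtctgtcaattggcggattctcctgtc
Msh5: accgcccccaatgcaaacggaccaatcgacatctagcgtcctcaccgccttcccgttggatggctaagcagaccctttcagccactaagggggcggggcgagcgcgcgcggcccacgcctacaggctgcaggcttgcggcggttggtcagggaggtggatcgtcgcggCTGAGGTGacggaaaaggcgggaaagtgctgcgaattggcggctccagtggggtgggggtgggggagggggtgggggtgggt
Hfm1: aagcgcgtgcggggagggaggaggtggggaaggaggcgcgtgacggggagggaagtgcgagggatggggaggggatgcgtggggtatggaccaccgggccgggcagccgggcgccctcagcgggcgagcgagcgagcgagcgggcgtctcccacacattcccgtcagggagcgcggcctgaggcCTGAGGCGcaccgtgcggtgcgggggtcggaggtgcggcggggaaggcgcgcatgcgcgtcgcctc
Syce2: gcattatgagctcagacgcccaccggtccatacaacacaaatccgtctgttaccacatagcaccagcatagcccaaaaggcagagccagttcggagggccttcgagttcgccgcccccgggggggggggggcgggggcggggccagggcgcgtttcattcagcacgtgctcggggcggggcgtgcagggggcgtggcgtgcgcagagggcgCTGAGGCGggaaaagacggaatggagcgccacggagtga
Rad51ap2: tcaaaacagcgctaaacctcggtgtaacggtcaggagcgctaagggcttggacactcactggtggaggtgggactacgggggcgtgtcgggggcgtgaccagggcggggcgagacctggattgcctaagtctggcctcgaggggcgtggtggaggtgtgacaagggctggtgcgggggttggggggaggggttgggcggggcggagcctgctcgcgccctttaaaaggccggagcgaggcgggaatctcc

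Gfra1, Ret and Etv5, genes of undifferentiated spermatogonia, fell. Of 22 members 15 passed the filter, of which limma called 3 lower and none higher with all 7 libraries and without leptotene library 2, where 6.97% and 8.48% of all genes were called lower, and 9 lower with libraries 1 and 4 only (27.1% of all genes). Their median difference was -0.95 with all 7 libraries. Gfra1, the GDNF co-receptor, fell from 13.5, 14.1 and 6.86 to 0.823, 0.702, 1.75 and 0.496 (-2.48, SE 0.42, adjusted p 0.0158). Ret, its signalling partner, fell from 10.5, 9.40 and 5.21 to 0.793, 0.306, 1.39 and 0.476 (-2.23, SE 0.39, adjusted p 0.0179). Etv5, a transcription factor downstream of GDNF, fell from 15.2, 13.5 and 7.22 to 2.88, 1.13, 1.21 and 2.05 (-2.07, SE 0.38, adjusted p 0.0202). The stages did not overlap for Gfra1, Ret or Etv5, a pattern that 24.2% of all genes tested showed in this direction. Ret and Etv5 missed the threshold without leptotene library 4 (limma adjusted p 0.0591 and 0.0505). Zbtb16 (PLZF), a stem cell transcription factor, was at 44.8, 44.2 and 18.9 against 7.75, 6.57, 10.7 and 5.46 (-1.82, SE 0.44, adjusted p 0.0506). The somatic marker sums given above fell in the same libraries, and their part in these differences was not tested.

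Markers of differentiating spermatogonia gave a share of calls near that of all genes. Of 16 members, 1 was called lower with all 7 libraries (6.97% of all genes) and without leptotene library 2 (8.48%), and 6 with libraries 1 and 4 only (27.1%). Ccnd2, the gene for cyclin D2, fell from 22.9, 22.9 and 11.6 to 5.50, 4.19, 3.75 and 2.98 (-1.86, SE 0.38, adjusted p 0.0295), and missed the threshold without leptotene library 4 (adjusted p 0.0937). Kit differed by -1.06 (SE 0.54, adjusted p 0.246) with all 7 libraries and by -1.41 (SE 0.36, adjusted p 0.0122) with libraries 1 and 4 only. Dmrt1, which holds back meiotic entry, was at 38.3, 51.8 and 40.9 against 14.1, 9.14, 40.4 and 9.28, and differed by -1.81 (adjusted p 0.00653) with libraries 1 and 4 only. Library 3 lay within the range of spermatogonia for Kit and Dmrt1, and the limma adjusted p of Dmrt1 with all 7 libraries was 0.196. Without library 3 the adjusted p of Kit and Dmrt1 was 0.0141 and 0.0102. Kit was among the genes that set library 3 apart above, and dropping this library removes the highest leptotene value of both genes. The calls without library 3 are therefore no independent test of a fall.

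Retinoic acid genes included the deepest falls outside the somatic markers. Of the 13 members tested, of 20, 5 were called lower with all 7 libraries and without leptotene library 2, and none higher. In those fits 6.97% and 8.48% of all genes were called lower. With leptotene libraries 1 and 4 only, 5 were called lower and 1 higher, where 27.1% and 15.6% of all genes were. Cyp26b1, an enzyme that degrades retinoic acid, fell from 246, 173 and 103 to 3.32, 2.23, 10.8 and 2.71 (-4.75, SE 0.58, adjusted p 0.00691; -4.67, adjusted p 0.0044 without leptotene library 2). Aldh1a1, which makes retinoic acid and is known from Sertoli cells, fell from 14.1, 18.2 and 5.43 to 0.0743, 0.493, 0.657 and 0.167 (-2.96, SE 0.45, adjusted p 0.0117). Aldh1a2, the germ cell enzyme for the same step, was at 4.46, 6.34 and 6.30 against 11.4, 7.25, 6.42 and 8.86 (0.41, SE 0.31, adjusted p 0.416). Dhrs3 fell by 1.64 and Rxra by 1.52 (adjusted p 0.0228 and 0.0393). Cyp26b1 is known from peritubular and Sertoli cells, and its level moved with the somatic marker sums given above; their part was not tested.

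The largest falls named by the rule were of smooth muscle, matrix and somatic genes. Acta2 fell from 98.9, 86.6 and 47.8 to 0, 0.460, 0.698 and 0 (-5.73, SE 0.40, adjusted p 0.00607). Fgl2, a fibrinogen-like protein gene, fell from 162, 210 and 69.1 to 1.63, 1.53, 7.38 and 1.71 (-4.88, SE 0.62, adjusted p 0.0078). Myl9, a myosin light chain, fell from 70.8, 75.1 and 15.9 to 0, 0, 1.08 and 0.2 (-4.71, SE 0.63, adjusted p 0.00933), and Myh11, a smooth muscle myosin, from 20.5, 33.8 and 15.4 to 0, 0, 0.436 and 0.0936. The differences were -4.49 and -4.10 for the matrix genes Col4a4 and Sparc, -4.44 for Plpp3, -4.27 for Acsbg1, -4.15 for Fhl2 and -4.01 for Tgm2, each with an adjusted p of 0.00824 or lower. Cavin1, named without leptotene library 2, fell by 4.11 there (adjusted p 0.00395). All of these were also lower in total RNA, with adjusted p between 0.00956 and 0.0129 except for Sparc (-2.24, adjusted p 0.15).

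Most somatic markers tested were called lower. Limma called lower 10 of 11 tested peritubular and vascular genes, 9 of 16 Sertoli genes, 6 of 9 Leydig genes and 3 of 5 blood and macrophage genes with all 7 libraries, where 6.97% of all genes were called lower. The counts were 10, 10, 6 and 4 without leptotene library 2, where 8.48% of all genes were called lower. Among Sertoli markers, Vim and Cldn11 fell by 3.03 and 2.83. Hsd3b1, a Leydig steroid enzyme, fell from 19.8, 22.4 and 10.1 to 0.0838, 0.318, 0.388 and 0 (-3.72, SE 0.39, adjusted p 0.00607). Among vascular and matrix markers Eln fell by 3.91 and Col1a1 by 3.73, and the macrophage genes Lyz2, C1qa and C1qb fell by 2.57, 2.07 and 1.40. Star, a steroid transport gene, did not pass (-0.31, SE 0.32, adjusted p 0.557), at 1.72, 1.55 and 2.69 against 2.20, 1.51, 1.18 and 1.58.

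**Figure D4:**
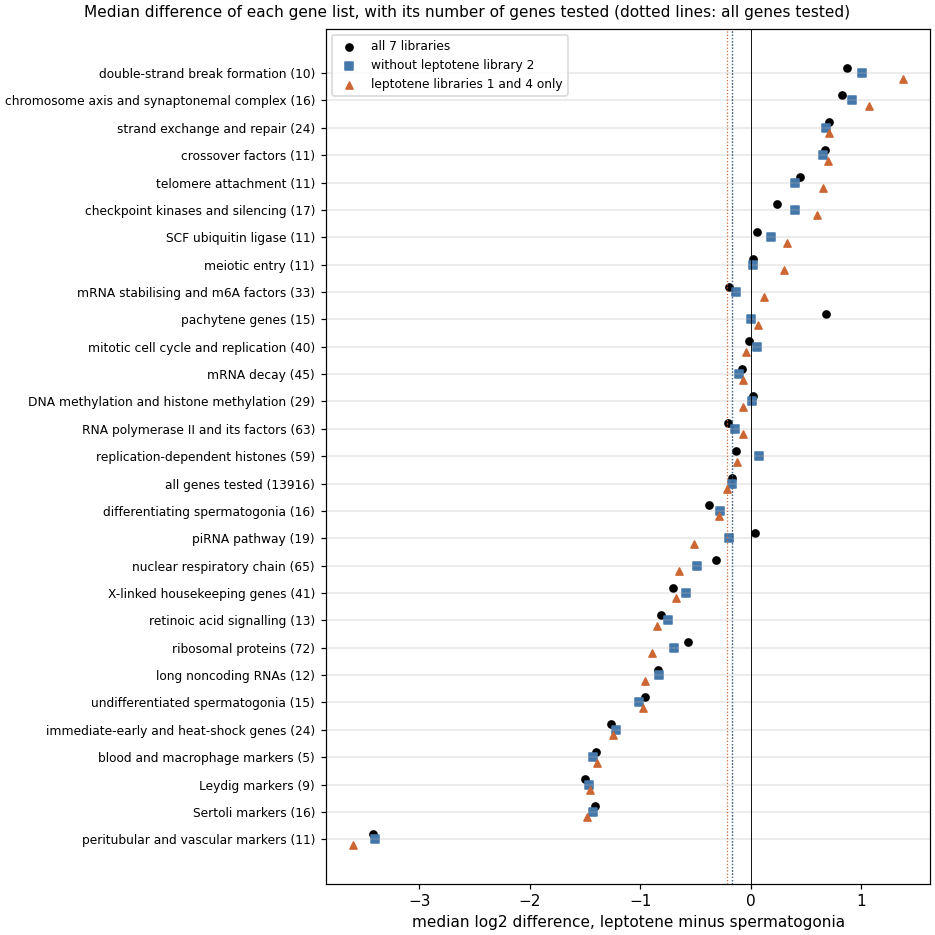
Median log2 difference, leptotene minus spermatogonia, of each gene list except structured RNAs and spermatid genes, with the number of genes tested with all 7 libraries in brackets. Circles, squares and triangles are all 7 libraries, without leptotene library 2, and leptotene libraries 1 and 4 only, and the dotted lines are the medians of all genes. Break formation is highest at 0.87, 1.01 and 1.38, and peritubular and vascular markers are lowest at -3.42, -3.40 and -3.60.

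Immediate-early and heat-shock genes, which cells switch on within minutes of handling or stress, included 10 called lower and none called higher, of 24 tested, both with all 7 libraries and without leptotene library 2. In those fits 6.97% and 8.48% of all genes were called lower. The stages did not overlap for 18 of the 24, where 24.2% of all genes had no overlap in this direction (29.8% without leptotene library 2). Nr4a1, an orphan nuclear receptor, fell from 8.29, 9.08 and 3.07 to 0.847, 0.557, 0.643 and 0.500 (-1.96, SE 0.41, adjusted p 0.0318). Junb fell from 7.26, 4.48 and 3.48 to 0.814, 0.325, 0.669 and 0.565 (-1.78, SE 0.32, adjusted p 0.019). The near-identical heat-shock genes Hspa1a and Hspa1b fell by 1.89 and 2.13 (adjusted p 0.0243 and 0.0135), and reads could be split between them. Without leptotene library 4 the adjusted p of Nr4a1, Junb and Hspa1a was 0.0976, 0.0659 and 0.0719. Egr1 was at 0.0428 in spermatogonia library 1 and at 14.7 and 9.51 in the other spermatogonia libraries, and gave no call (-0.13, SE 0.49, adjusted p 0.889). The part of somatic cells in this list was not tested.

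The median difference of X-linked genes was -0.66 over 441 protein-coding genes, against -0.29 over 10169 autosomal ones, and 13.2% were called lower against 8.56%; the difference between the chromosomes was not tested over genes. Without leptotene library 2 the medians were -0.57 and -0.30, with 15.2% and 10.2% called lower, and with libraries 1 and 4 only they were -0.73 and -0.39, with 44.0% and 30.8%. The share of the X chromosome in the summed nascent FPKM outside structured and ribosomal RNA was 4.30%, 4.29% and 4.06% in spermatogonia. It was 3.69%, 2.18%, 3.82% and 3.61% in leptotene libraries 1 to 4 and 0.351% to 1.27% in pachytene, so that the stages did not overlap and library 2 was the lowest of the 4. The difference of the animal means was -0.722 percentage points (two-sided exact permutation p 0.2 over 2 and 3 animals, the smallest that this design allows, and 0.64 adjusted over 8 shares). As a share of the whole rescaled sum it was -0.292, and -0.199 without leptotene library 2. Of 41 X-linked housekeeping genes, 4 were called lower with all 7 libraries (6.97% of all genes) and without library 2 (8.48%) and none higher (median -0.70), a share near that of all genes.

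The 4 were Flna, Gnl3l, Pdha1 and Cox7b. Flna, the gene for filamin A, fell from 47.1, 51.0 and 15.1 to 3.01, 1.35, 4.19 and 2.74 (-2.86, SE 0.51, adjusted p 0.0186), and is strongly expressed in smooth muscle. Gnl3l, a nucleolar GTPase gene, fell from 8.03, 6.68 and 3.98 to 0.828, 0.836, 1.79 and 0.769 (-1.63, adjusted p 0.0444). Pdha1, which has an autosomal copy for meiotic cells, fell from 10.7, 10.6 and 5.54 to 2.32, 1.45, 2.07 and 1.80 (-1.59, adjusted p 0.0377). Cox7b, a respiratory chain subunit, was at 4.35, 0.889 and 2.75 against 0.352, 0, 0.277 and 0 (-1.60, adjusted p 0.0186). All 4 lost the call without leptotene library 4 (adjusted p between 0.0556 and 0.132).

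**Figure D5:**
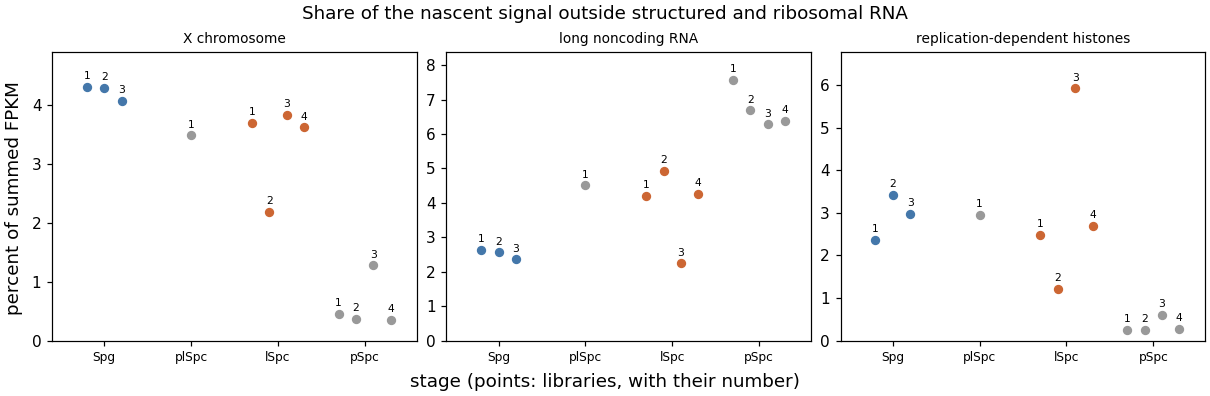
Share of summed rescaled FPKM outside structured and ribosomal RNA, in percent, for genes of the X chromosome, long noncoding RNAs and replication-dependent histones, in each of the 12 nascent libraries by stage (Spg, spermatogonia; plSpc, preleptotene; lSpc, leptotene; pSpc, pachytene). The X share is 4.06% to 4.30% in spermatogonia and 2.18% to 3.82% in leptotene, and leptotene library 3 is lowest for long noncoding RNA (2.24%) and highest for histones (5.93%).

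Long noncoding RNAs took a larger share in 3 of the 4 leptotene libraries. Genes of these classes held 2.63%, 2.56% and 2.36% of the same sum in spermatogonia and 4.20%, 4.93%, 2.24% and 4.26% in leptotene libraries 1 to 4, with library 3 below every spermatogonia library (difference 1.21 percentage points, exact permutation p 0.6, adjusted 0.686). Of the 12 well-known long noncoding RNAs tested, 1 was called lower and none higher with all 7 libraries, where 6.97% of all genes were called lower (median -0.84). With leptotene libraries 1 and 4 only, 8 of the 12 were called lower and 1 higher, where 27.1% and 15.6% of all genes were. Malat1, an abundant nuclear RNA, fell from 626, 678 and 272 to 92, 79.8, 130 and 76.9 (-2.14, SE 0.44, adjusted p 0.03), and missed the threshold without leptotene library 4 (adjusted p 0.101). Gas5, a host of small nucleolar RNAs, passed without leptotene library 2 (-1.08, adjusted p 0.0394).

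Cell cycle and histone genes gave few calls. Of 40 cell cycle and replication genes limma called none with all 7 libraries or without leptotene library 2 (5 and 6 higher and 1 lower in each at an unadjusted p under 0.05). With libraries 1 and 4 only it called 5 higher and 5 lower, where 15.6% and 27.1% of all genes were called. The median of the 40 was -0.02 with all 7 libraries, and 0.36 at equal median. Mki67, a marker of cycling cells, was at 15.6, 17.3 and 32.3 against 67.6, 38.6, 47.0 and 50 (1.06, SE 0.35, limma adjusted p 0.117). Its leptotene libraries all lay above spermatogonia, as for 7.94% of all genes tested. Top2a, the topoisomerase of condensing chromosomes, was at 8.65, 9.78 and 13.6 against 41.2, 18.4, 23.8 and 31.1 (1.22, SE 0.32, adjusted p 0.0619). Replication-dependent histones held 2.37%, 3.43% and 2.98% of the sum outside structured RNA in spermatogonia and 2.48%, 1.22%, 5.93% and 2.70% in leptotene. Of 59 histone genes tested, Hist1h4f was the 1 called with all 7 libraries, where 0.273% of all genes were called higher and 6.97% lower. With libraries 1 and 4 only, 5 of the 59 were called higher and 1 lower, where 15.6% and 27.1% of all genes were.

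RNA polymerase II and its factors gave few calls. Of 63 tested none was called with all 7 libraries or without leptotene library 2 (2 higher in each, and 3 and 2 lower, at an unadjusted p under 0.05). With libraries 1 and 4 only, 6 of 61 were called higher and 10 lower, below the 15.6% and 27.1% of all genes. The median of the list, -0.21 with all 7 libraries, lay near the -0.17 of all genes. It turned to 0.13 at equal median, as all genes did. Polr2a, the largest subunit, was at 66.4, 57.6 and 48.3 against 68.6, 56.2, 53.0 and 33.1 (-0.19, SE 0.36, adjusted p 0.759). These are shares of nascent RNA and say nothing of how much the polymerase made per cell. Ribosomal protein genes, of which 2 of 72 were called lower with all 7 libraries, fewer than the 6.97% of all genes, had a median of -0.57. The 2, Rps15 and Rps9, fell by 1.72 and 1.44 (adjusted p 0.0348 and 0.0326). Rps15 was at 15.3 in leptotene library 2 and at 3.93, 4.01 and 4.71 in the others. With leptotene libraries 1 and 4 only, 36 of 70 ribosomal protein genes were called lower and 2 higher, with a median of -0.90. In that fit 27.1% of all genes were called lower and 15.6% higher, with a median of -0.22. Of 65 respiratory chain genes 2 were called lower and none higher with all 7 libraries, again fewer than the 6.97% of all genes: Cox7b and Ndufb11 (-1.47, adjusted p 0.0273). Without leptotene library 2, of 63 tested, 3 were lower, with Ndufv3 added (-1.23, adjusted p 0.038), and 1 higher, Ndufa1 (adjusted p 0.0404), which was listed at 0 in every spermatogonia library. With leptotene libraries 1 and 4 only, 16 of 60 respiratory chain genes were called lower and none higher.

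The ribosomal precursor and 4 short rows held most of the summed FPKM of every library, and the short rows held the larger part. The row Rn45s alone held 12.9% to 17.5% of the rescaled sum in the 7 libraries. FPKM is per kilobase, which raises the values of short rows, so these are not shares of reads. The row Rn45s together with 4 short rows annotated as miRNA held 70.5%, 70.1% and 67.3% of the rescaled sum in spermatogonia and 67.1%, 70.1%, 70.8% and 72.2% in leptotene, so that the stages overlapped (difference 1.71 percentage points, exact permutation p 0.4, adjusted 0.64). Every other gene is measured within the remaining share. All 37 mitochondrial rows were at 0, so a listed 0 can be a missing estimate. The spike-in share dropped before rescaling ran from 8.86% to 59.0% in spermatogonia and from 5.01% to 69.2% in leptotene. The table gives no read numbers. Only 30.8% to 38.3% of its low values lay within 0.05 of a whole number of steps, so reads were not recovered, the depth is unknown, and no counting interval is given.

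Total RNA from other animals, labelled IND1, IND3 and IND4, was compared in the same way and library layout. Limma called 15 of 16916 genes higher (0.0887%) and 1441 lower (8.52%), and without its leptotene library 2, 45 higher (0.274%) and 2184 lower (13.3%). Of the 970 genes called lower in nascent RNA, 966 were tested in total RNA, 958 had the same direction and 763 were called lower there. Of the 38 called higher, 37 were tested, 32 had the same direction and 1 was called, Cdkn3 (2.19, adjusted p 0.0407). Fbxo47 differed by 2.76 (adjusted p 0.0842), Meiob by 2.37 (adjusted p 0.107) and Rad51ap2 by 2.53 (adjusted p 0.103) in total RNA. Dmc1 differed by 1.57, Spo11 by 0.38 and Stra8 by 0.01, none of them called. The differences between the assays themselves were not tested. With animal as a block the total RNA calls were 361 higher and 1828 lower.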

How the data were processed

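Nascent RNA was captured by its EU label and sequenced without ribosomal RNA depletion, per the labels' protocols, with a directional library kit. The authors deposited FPKM per gene. Per the submitters' processing notes, the tools were STAR (2.5.2a) and StringTie, and the build was mm10. The annotation, the StringTie version and the use of strand are not given in the sources used here, so overlapping genes are uncertain. The second nascent table, deposited by the authors as a 5S-corrected signal, served only for its list of libraries (9 of 12).

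From the deposited FPKM, spike-in rows were dropped, each library was scaled to the same sum, 1 was added before log2, and libraries of 1 animal and stage were averaged. Limma 3.58.1 (R 4.3.3, empirical Bayes with trend) was fitted to genes with at least 1 in at least 2 libraries, and tested on simulated data. Library numbers do not pair animals; the labels' individuals do (IND5 and IND7 gave both stages), and the fit with animal as a block has 1 residual degree of freedom. Coordinates and gene classes come from GENCODE M21 by symbol, which held 13486 of the 13916 genes. The FPKM tables give no read counts, so depth is unknown.

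Members and the 30 gene lists were chosen with earlier results of these data known. Genes named outside lists are up to 12 rises and 12 falls with all libraries and up to 10 of each without leptotene library 2, with no overlap between stages and a mean of at least 5. From each list up to 4 called members were named, or the 2 highest where fewer than 2 were called, and 16 genes always; those whose direction turned with the settings and that no result needed were left to the counts. Other list members named were chosen after their values were seen. P-values measure only the spread between these animals. Some genes that the rule names are not reported here.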

Additional observations from a re-analysis of the deposited data

Results flagged for a closer look

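Of 38 sets of leptotene libraries examined (30 summed gene lists on the scale of log2(sum + 1), and 8 shares), 1 had a library far from the other 3. The X chromosome held 2.18% of the summed nascent FPKM outside structured and ribosomal RNA in leptotene library 2, against 3.61% to 3.82% in the other leptotene libraries. The gap to the nearest library was 0.874 of the range of the 4. With the list sums taken on a linear scale, 2 of the 30 lists also set library 2 apart: pachytene genes (1307 against 73.8 to 176, gap 0.917 of the range) and spermatid genes (23.8 against 4.91 to 7.71, gap 0.852). The linear scale was chosen after seeing the data. Chance alone sets about 1 in 20 such groups apart.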

How the results depend on the processing

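Of 3040 refits of 107 genes over 29 alternatives, 16 turned direction, in Dazl, Polr2a and Gm4969. None of these was among the 52 genes called with all 7 libraries. Genes left out of the text, some of them because their direction turned, are not among the 107. The counts therefore understate such turns among the genes that the rule named. The 4 alternatives that combine or drop libraries 2 and 3, or 1 and 4, with another scaling were chosen after seeing the data. Except where a library was dropped or fewer genes were tested, the cause of a change was not tested.

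Calls higher and lower, 38 and 970 with all 7 libraries, were 0 and 0 with no filter on level (870 and 4141 at an unadjusted p under 0.05), 2 and 106 with at least 1 in 4 libraries, 59 and 710 with a pseudocount of 0.1, 11 and 861 with 5, 27 and 424 at equal median, and 161 and 1729 with all stages in 1 fit. They were 38 and 460 at equal median without leptotene library 2, 2073 and 3606 with leptotene libraries 1 and 4 only, 3687 and 2706 with these at equal median, and 0 and 0 without libraries 1 and 4 (201 and 1762 unadjusted). Leaving out 1 library gave 9 to 1253 higher and 315 to 2856 lower. Leaving out an animal gave 17 and 1009 (IND5), 0 and 0 (IND7; 121 and 219 unadjusted) and 1253 and 2856 (IND8, which is leptotene library 3). Without IND5 or IND7, only the other of these animals is left for spermatogonia, so those fits hold no spread between spermatogonia animals. With the animal as a replicate block the calls were 972 and 2254, 2134 and 3102 without leptotene library 2, and 389 and 2216 as a random block. In total RNA, 15 and 1441 became 45 and 2184 without leptotene library 2, and 361 and 1828 with the block.

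Of these 52 called genes, 25 lost the call without leptotene library 4, 10 without leptotene library 1 and 3 without leptotene library 2. Some also lost the call without spermatogonia library 3, where only animal IND7 is left for spermatogonia. Of 55 not called, 37 gained it without leptotene library 3.

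Dazl (-0.42) turned to 1.16 with leptotene libraries 1 and 4 only and with the block without leptotene library 2, 0.89 with the block and without IND8, 0.24 with the random block, 1.57 and 0.15 at equal median with libraries 1 and 4 only and without library 2, and ran from -1.30 to 0.89 when 1 library was left out. Polr2a (-0.19) turned to 0.22 at equal median, 0.24 without IND7, and 0.22 and 0.25 at equal median with libraries 1 and 4 only and without library 2, and ran from -0.365 to 0.068 when 1 library was left out. Gm4969 (0.41) was -0.042 without leptotene libraries 1 and 4.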

Other observations

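The piRNA pathway, which silences transposons in germ cells, gave no call among 19 genes tested with all 7 libraries, where limma called 0.273% of all genes higher and 6.97% lower (1 higher and 0 lower at an unadjusted p under 0.05). With leptotene libraries 1 and 4 only, 1 of its genes was called higher and 4 lower (15.6% and 27.1% of all genes). Its summed nascent level was 165, 153 and 148 in spermatogonia and 145, 408, 169 and 108 in leptotene libraries 1 to 4, so that library 2 stood highest. Spermatid genes summed to at most 9.95 in spermatogonia and to 23.8 in leptotene library 2, with 4.91 to 7.71 in the other leptotene libraries, and none of 4 tested was called (0 at an unadjusted p under 0.05).

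Genes of DNA and histone methylation gave no call among 29 with all 7 libraries (1 higher and 1 lower unadjusted), and 3 higher and 5 lower with libraries 1 and 4 only. In that last fit 15.6% of all genes were called higher and 27.1% lower. Genes of mRNA decay gave none among 45 (0 and 1 unadjusted), and 1 and 5 with libraries 1 and 4 only. Genes that stabilise mRNA or write and read m6A gave none among 33 (3 and 2 unadjusted), and 3 and 7 with libraries 1 and 4 only. Structured noncoding RNAs gave none among 11, and 0 at an unadjusted p under 0.05. Pachytene genes gave none among 15 (2 higher unadjusted), and with libraries 1 and 4 only 3 were higher, from a summed level of 52.7 to 71.2 in spermatogonia to 176 and 127.

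Genes over 100 kb long had a median log2 difference of -0.46 over 1345 protein-coding genes, and 13.1% of them were called lower. In 5 bins of shorter genes the medians lay between -0.34 and -0.24 and 7.75% to 9.05% were called lower. Without leptotene library 2 the median of the longest genes was -0.47, with 16.1% called lower. Differences between the bins were not tested.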
